A study of Mus musculus with 12 samples.

Results

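Btg1, Btg2, Btg3, Tob1, Tob2, Zfp36, Zfp36l1 and Zfp36l2 encode adaptors that bring messenger RNA to the machinery that removes its poly(A) tail. They were chosen by name as the Btg/Tob and Zfp36 families, 5 and 3 genes. Their identifiers are ENSMUSG00000036478 (Btg1), ENSMUSG00000020423 (Btg2), ENSMUSG00000022863 (Btg3), ENSMUSG00000037573 (Tob1), ENSMUSG00000048546 (Tob2), ENSMUSG00000044786 (Zfp36), ENSMUSG00000021127 (Zfp36l1) and ENSMUSG00000045817 (Zfp36l2). All 8 were listed among the 16386 genes measured in a mouse pancreatic stellate cell line, PSC4, and among the 15309 genes measured in a mouse pancreatic adenocarcinoma line, KPC4, and all 8 passed the filter on low counts in both. Btg4 and Zfp36l3, the remaining relatives, were listed only for PSC4, where no library held more than 9 counts of either, and they are not described further.

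As background, most messenger RNAs are degraded after their poly(A) tail has been shortened, mainly by the CCR4-NOT complex, whose catalytic subunits are Cnot6, Cnot6l, Cnot7 and Cnot8. Btg and Tob proteins bind Cnot7 and Cnot8 through a conserved domain, and Tob proteins also bind the poly(A)-binding protein, so that they speed up tail removal on many messages. Zfp36 (tristetraprolin), Zfp36l1 and Zfp36l2 are zinc finger proteins that bind AU-rich sequences in 3′ untranslated regions, typically of cytokine and early-response messages, and recruit CCR4-NOT to them. Btg1, Btg2 and Tob1 are also known as antiproliferative genes, and Btg2 and Zfp36 as early-response genes. Zfp36 protein is held inactive by phosphorylation through the p38 and MK2 kinases, so its RNA level alone does not give its activity.

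RNA was sequenced from 12 libraries, 3 labelled as biological replicates in each of 4 groups. PSC4 cells were kept for 24 h in Control-SU or in Gem-SU, medium conditioned for 14 h by KPC4 cells that had first received vehicle or 10 µM gemcitabine for 6 h and been washed. Gemcitabine is a nucleoside analogue used against pancreatic cancer. In the second experiment KPC4 cells were kept for 24 h in Control-PSC-SU or Gem-PSC-SU. This medium was conditioned for 18 h by PSC4 cells after 6 h in the corresponding tumour-cell supernatant and a wash. All conditioning was in starvation medium, the labels name no direct dosing of recipient cells with the drug, and each cell type was represented by 1 line. Because each line received its own kind of supernatant, a difference between the lines cannot be told apart from a difference between the transfer steps.

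Library totals were 29559414 to 38138356 counts in PSC4 and 26354328 to 34744150 in KPC4. Levels below are CPM, the count of a gene relative to its library total, after scaling by edgeR's TMM factors over the 12 libraries. The lines carried their own markers: summed stellate markers were 8084 to 8754 CPM in PSC4 controls and summed epithelial markers 6088 to 7409 CPM in KPC4 controls, against 3.74 to 6.57 CPM of epithelial markers in PSC4 controls. The stellate sum of 2464 to 2809 CPM in KPC4 controls was mainly Vim. Under Gem-SU the stellate sum in PSC4 was 2357 to 3519 CPM, and the epithelial sum reached 11.7 to 15.2 CPM. Of the 9 stellate markers tested, 8 were called lower at an edgeR adjusted p under 0.05, against 22% of all genes. Leukocyte markers summed to no more than 5.55 CPM in any library. In bulk RNA, fewer cells of a kind and less RNA per cell cannot be told apart, and whether the shift in stellate markers contributes to the values below was not tested.

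In PSC4, Btg2, Tob1, Tob2 and Zfp36 rose and Zfp36l2 fell under Gem-SU, while Btg1, Btg3 and Zfp36l1 did not pass the test. The rise of Btg2 was 62.8-fold and ranked 44th by size among 13347 tested genes. So 5 of 8 genes were called at an adjusted p under 0.05 (edgeR quasi-likelihood test, Benjamini-Hochberg over all tested genes), against 46.3% of all genes, with 4 higher, against 24.3%, and 1 lower, against 22%. Their median log2 fold change was 0.97, and that of all tested genes was -0.00. The response of the line was broad, so the count of members called says little apart from that background, and the sizes of single genes are given below.

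Btg2, a CCR4-NOT adaptor, lay at 16.8, 7.98 and 12.5 CPM in the PSC4 controls and at 765, 866 and 634 CPM after Gem-SU. Every treated library was far above every control. The means were 12.4 ± 4.40 and 755 ± 117 CPM (SD, n = 3 each), and the fit gave 5.97 on the log2 scale with an SE of 0.32 (edgeR adjusted p = 1.93e-05). The 250 bases before its start site are shown because Btg2 had the largest change and because the window holds a full cAMP response element; in the RefSeq window (GRCm38.p6, chr1:134079156-134079405, minus strand) capitals mark that TGACGTCA and 2 CCAAT boxes.
Btg2 promoter: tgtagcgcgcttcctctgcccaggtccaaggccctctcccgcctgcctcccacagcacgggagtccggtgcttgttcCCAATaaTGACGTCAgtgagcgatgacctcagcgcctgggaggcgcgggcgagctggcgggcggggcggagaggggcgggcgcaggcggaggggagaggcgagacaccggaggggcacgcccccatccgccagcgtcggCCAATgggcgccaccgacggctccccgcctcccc
TGACGTCA, searched on both strands, lay 166 to 159 bases upstream; 1.55% of 32851 promoter windows of this length held it, and 1 of the 8 windows that RefSeq gives for 7 of these genes did (Btg3 has 2 windows, and Zfp36l2 none). CCAAT, again on either strand, was present in 6 of the 8 windows and in 33.8% of all.

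Tob1 and Tob2, which carry a longer tail region than the Btg proteins with motifs that bind poly(A)-binding protein, rose less than Btg2 but evenly. Tob1 was at 41.4, 36.5 and 39.1 CPM in the PSC4 controls and at 188, 187 and 172 CPM after Gem-SU. The groups were far apart for their spread, with means of 39.0 ± 2.44 and 183 ± 9.02 CPM (SD, n = 3 each), 4.84-fold, or 2.27 on the log2 scale with an SE of 0.13 (edgeR adjusted p = 2.39e-05). Tob2 was at 86.7, 64.4 and 87.6 CPM in controls and at 200.7, 198.9 and 199.5 CPM after Gem-SU. The 3 treated libraries were nearly equal, and all exceeded every control. The fold was 2.59, with a log2 change of 1.38 and an SE of 0.16 (edgeR adjusted p = 0.000329).

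Btg1 and Btg3, the other family members, were higher on average without passing the test. Btg1 was at 221.5, 116.3 and 148.0 CPM in the PSC4 controls and at 260.7, 224.8 and 212.0 CPM after Gem-SU, so the highest control lay inside the treated range. Its log2 change was 0.57 with an SE of 0.23 (edgeR adjusted p = 0.0738). Without the first Control-SU library, the highest one, this became 0.86 with an adjusted p of 0.0100. Only 1 of the 6 fits that left out 1 library called Btg1, and the edgeR adjusted p reached 0.237. Btg3, whose product also binds Cnot7 and Cnot8, was at 31.0, 45.5 and 29.6 CPM in controls and at 47.7, 45.4 and 43.1 CPM after Gem-SU. One control was as high as the treated libraries. Its log2 change was 0.41 with an SE of 0.19 (edgeR adjusted p = 0.117). Without the second Control-SU library, that high control, it was 0.61 with an adjusted p of 0.0139. Only 1 of the 6 fits that left out 1 library called Btg3, and the edgeR adjusted p reached 0.392. The authors' deposited table gives Btg3 in PSC4 at a log2 fold change of -0.09 with an adjusted p of 0.891, the opposite sign to the fit of the counts, and neither passes the threshold.

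**Figure D1:**
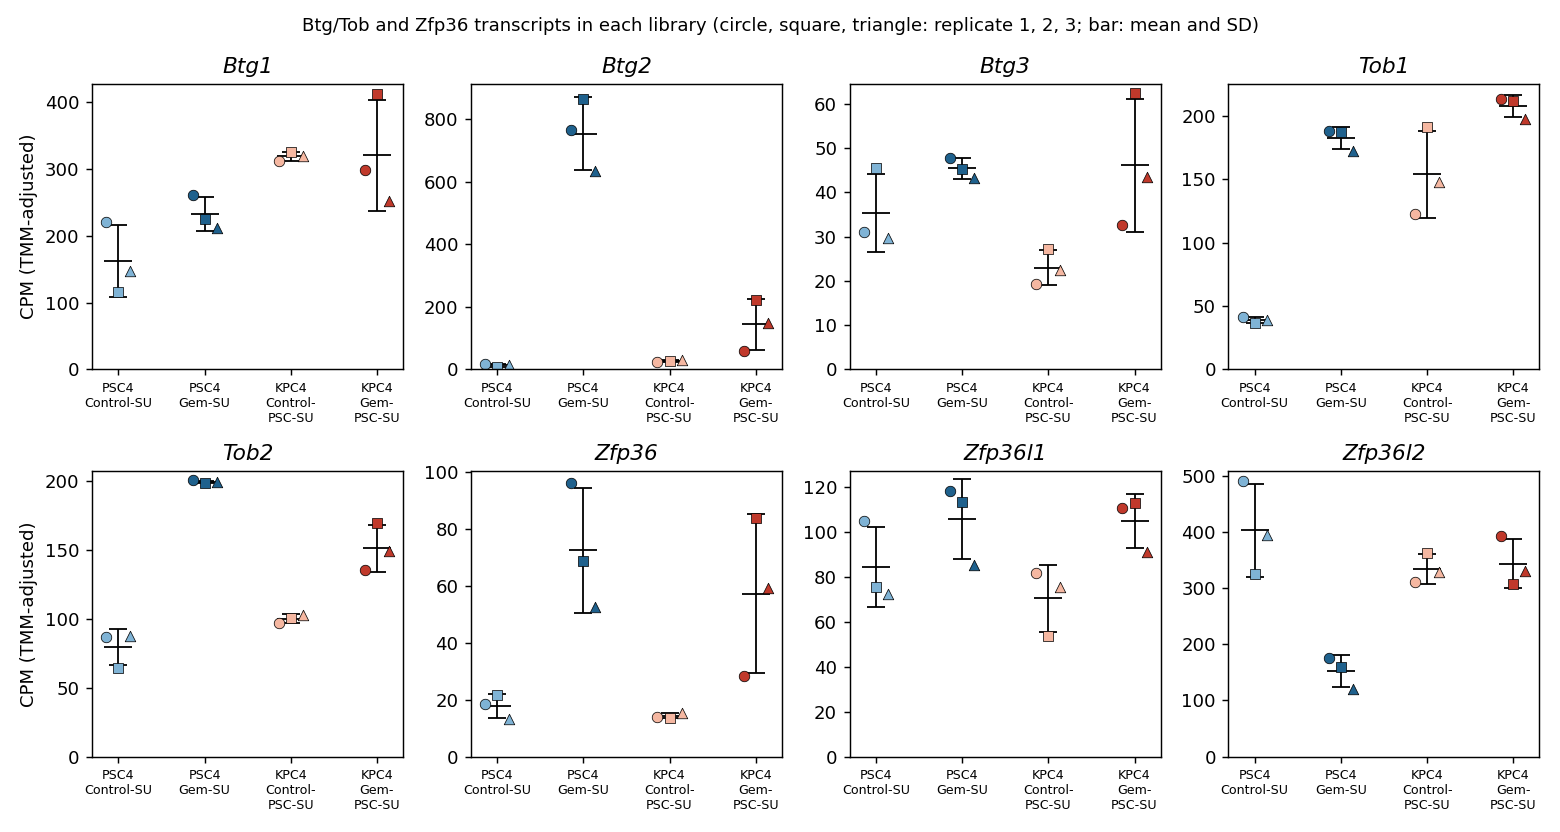
Each panel plots CPM for 1 gene, with a point for every library in the 4 groups and a bar for the group mean. In PSC4 the Gem-SU points of Btg2, Tob1, Tob2 and Zfp36 lie above all controls and those of Zfp36l2 below them; in KPC4 the first Gem-PSC-SU library of Btg2 and of Zfp36 (59.6 and 28.4 CPM) lies nearest to its controls.

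The 3 Zfp36 genes moved apart in PSC4. Zfp36 was at 18.4, 21.8 and 13.2 CPM in controls and at 96.3, 68.7 and 52.6 CPM after Gem-SU. All treated libraries exceeded all controls, 4.20-fold in the fit, with a log2 change of 2.07 and an SE of 0.27 (edgeR adjusted p = 0.000574). Zfp36l2 was at 489.7, 325.0 and 394.3 CPM in controls and at 175.9, 159.4 and 120.6 CPM after Gem-SU. It fell 2.57-fold, with every treated library below every control, a log2 change of -1.36 and an SE of 0.21 (edgeR adjusted p = 0.00119). Zfp36l1 was at 104.9, 75.8 and 72.3 CPM in controls and at 118.5, 113.5 and 85.3 CPM after Gem-SU. These ranges overlapped, and the log2 change of 0.37 with an SE of 0.19 was not called (edgeR adjusted p = 0.144). Without the first Control-SU library it was 0.56 with an adjusted p of 0.0492. Only 1 of the 6 fits that left out 1 library called Zfp36l1, and the edgeR adjusted p reached 0.451.

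The promoter of Zfp36 is shown beside that of Btg2 because both are early-response genes but the windows hold different motifs. In the RefSeq window (GRCm38.p6, chr7:28379229-28379478, minus strand) capitals mark a CArG box, the sequence bound by serum response factor, 58 to 49 bases upstream.
Zfp36 promoter: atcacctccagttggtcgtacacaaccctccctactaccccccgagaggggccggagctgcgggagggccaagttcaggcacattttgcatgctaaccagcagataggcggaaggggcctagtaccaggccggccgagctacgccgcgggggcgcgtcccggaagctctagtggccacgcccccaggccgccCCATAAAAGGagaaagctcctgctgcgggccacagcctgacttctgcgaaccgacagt
A CArG box on either strand was found in 1 of the 8 member windows and in 1.47% of all windows. TATAAA on the gene's own strand was in those of Btg1, Tob1 and Zfp36l1, and in 7.59% of all. Of the other motifs searched on both strands, TGANTCA and an NF-kB site were each in 1 of the 8 windows, against 6.75% and 3.9% of all. A p53 half-site was in 0 of the 8, against 7.13% of all. A match is a description of the letters only.

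The messages of the 8 genes were searched for the AU-rich letters that the zinc fingers of the Zfp36 proteins bind. TATTTAT, searched on the transcript strand with overlapping matches counted, was in the 3′ untranslated region of 6 of the 8 genes, against 27.4% of 20927 genes (longest coding transcript, GENCODE M21, GRCm38). The 3′ untranslated regions of these genes are long, with a median of 1828 bases against 935 for all. Zfp36, Zfp36l1 and Zfp36l2 held 3 sites each, Btg3 held 2, Btg2 and Tob2 held 1 each, and Btg1 and Tob1 held none. The longer TTATTTATT was in the 3 Zfp36 genes and in 7.55% of all genes. A site of each Zfp36 gene that lies within the longer motif, the single site of Btg2, and for comparison a clustered site of 2 textbook AU-rich messages are shown with TATTTAT in capitals. They lie at chr7:28376950-28376979 (minus strand) in Zfp36, chr12:80108166-80108195 (minus) in Zfp36l1, chr17:84184913-84184942 (minus) in Zfp36l2, chr1:134077248-134077277 (minus) in Btg2, chr1:150105786-150105815 (plus) in Ptgs2 and chr11:54247332-54247361 (minus) in Csf2, all in the 3′ untranslated region and in GRCm38.
Zfp36: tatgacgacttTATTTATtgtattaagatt
Zfp36l1: aactgttggatTATTTATtttagaaattct
Zfp36l2: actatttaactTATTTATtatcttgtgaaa
Btg2: aaatgaagagcTATTTATacatgttttttt
Ptgs2: tctactgaccaTATTTATTTATTTATgtga
Csf2: tattttttaaaTATTTATTTATTTATTTAT
The Zfp36 sites stand singly, whereas those of Ptgs2 and Csf2 overlap in runs. Zfp36 and Zfp36l2, which share the longer motif, changed in opposite directions in PSC4.

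In KPC4, Gem-PSC-SU gave higher values of Btg2 and Zfp36 in every library, with smaller differences for Btg3, Tob1, Tob2 and Zfp36l1. No member passed the test without pairing, against 0% of 13236 genes (edgeR), although 5 of 8 had an unadjusted p under 0.05, against 17% of all genes. DESeq2 called 4, against 823 genes in all. Same-numbered libraries of this line deviated together, so the replicate number was added as a block. With it Btg2, Btg3, Tob2 and Zfp36 were called, 4 of 8, against 8.85% of all genes, and all 4 were higher, against 6.07%. Groups did not overlap for 6 genes, all higher in Gem-PSC-SU, against 12.2% of all genes.

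Btg2 in KPC4 was at 23.2, 25.5 and 28.8 CPM in controls and at 59.6, 222 and 149 CPM after Gem-PSC-SU. The first treated library lay nearest to the controls and still above them. The means were 25.8 ± 2.80 and 144 ± 81.5 CPM (SD, n = 3 each), and the log2 change was 2.48 with an SE of 0.43 (edgeR adjusted p = 0.112; with the block 2.29 and 0.0222). Zfp36 showed the same order of libraries, with 14.1, 13.7 and 15.5 CPM in controls and 28.4, 84.1 and 59.4 CPM after Gem-PSC-SU. Its log2 change was 1.99 with an SE of 0.37 (edgeR adjusted p = 0.112; with the block 1.86 and 0.0199). Without the first Gem-PSC-SU library and without the block, Btg2 was called at 2.86 (edgeR adjusted p = 0.000685) and Zfp36 at 2.32 (0.00161). So in the edgeR fit of this line alone those calls depend on that library. Both were called in 1 of the 6 fits that left out 1 library, with edgeR adjusted p up to 0.509.

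Btg3 was at 19.3, 27.1 and 22.5 CPM in the KPC4 controls and at 32.7, 62.4 and 43.4 CPM after Gem-PSC-SU, again lowest in the first and highest in the second treated library. Its log2 change was 1.01 with an SE of 0.28 (edgeR adjusted p = 0.152; with the block 0.97 and 0.0153). Tob2 was at 96.8, 101 and 103 CPM in controls and at 135, 169.6 and 149 CPM after Gem-PSC-SU. It followed the same order, with a log2 change of 0.59 and an SE of 0.17 (edgeR adjusted p = 0.162; with the block 0.59 and 0.0382). Without the first Gem-PSC-SU library these became 1.21 (edgeR adjusted p = 0.0255) for Btg3 and 0.68 (0.0423) for Tob2. Both were called in 1 of the 6 fits that left out 1 library, with edgeR adjusted p up to 0.526 and 0.530.

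The other 4 genes were not called in KPC4 under either fit. Tob1 was at 123, 191 and 148 CPM in controls and at 213, 212 and 198 CPM after Gem-PSC-SU, without overlap and with a log2 change of 0.43 (edgeR adjusted p = 0.298; with the block 0.0913). Zfp36l1 was at 81.8, 53.8 and 75.8 CPM in controls and at 110.7, 113.1 and 91.3 CPM after Gem-PSC-SU, again without overlap, with a log2 change of 0.57 (edgeR adjusted p = 0.229; with the block 0.0871). Btg1 averaged 319.5 ± 6.57 CPM in controls and 321 ± 83.0 CPM after Gem-PSC-SU, with a log2 change of 0.01 and an SE of 0.21. Zfp36l2, which fell in PSC4, averaged 334 ± 26.4 and 344 ± 43.9 CPM (SD, n = 3 each), with a log2 change of 0.04 and an SE of 0.16 (edgeR adjusted p = 0.926). The authors' deposited table calls 2 of the 8 in KPC4, Btg2 at 2.47 with an adjusted p of 9.88e-07 and Zfp36 at 1.94 with 4.79e-05. In PSC4 it calls the same 5 members as the fit of the counts. The share of all genes called in the authors' tables is not given here, so these counts cannot be set against a background.

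**Figure D2:**
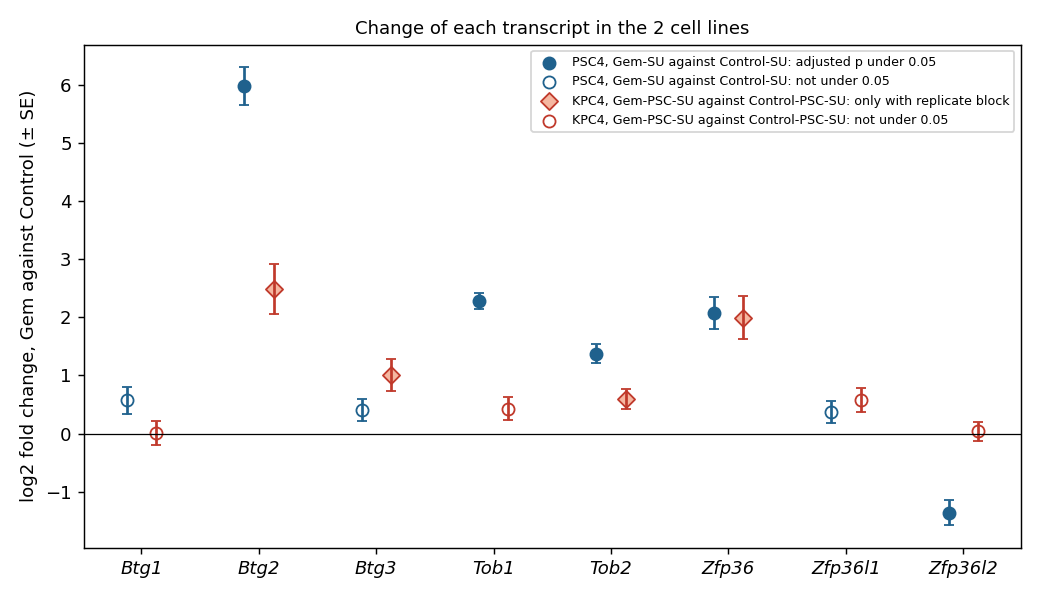
Log2 fold changes of the 8 genes, Gem against Control, with bars of 1 standard error, for PSC4 and KPC4, from the fits without the block. The marker shows whether the edgeR adjusted p was under 0.05 without the block. A marker for calls made only with the replicate block is drawn for KPC4 alone. Btg2 lies at 5.97 and 2.48, Zfp36 at 2.07 and 1.99, and Zfp36l2 at -1.36 and 0.04.

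The difference between the 2 responses was tested as an interaction over the 12 libraries, as the PSC4 change minus the KPC4 change. It was called for 3 of the 8 genes, against 9.85% of 13632 tested genes, with 2 positive, against 4.75%, and 1 negative, against 5.1%: Btg2 at 3.45 with an SE of 0.54 (edgeR adjusted p = 0.00226), Tob1 at 1.79 with 0.24 (0.000958) and Zfp36l2 at -1.45 with 0.28 (0.00642). Zfp36 differed by 0.04 with an SE of 0.47 (edgeR adjusted p = 0.973), a standard error that leaves room for sizeable differences in either direction. Tob2 differed by 0.73 (edgeR adjusted p = 0.0539). For Btg1, Btg3 and Zfp36l1 the differences were 0.51, -0.65 and -0.25, none of them called.

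Between the control groups, the lines differed in 3 of the genes. Tob1 was lower in PSC4 than in KPC4 controls, with a log2 difference of -1.98 with an SE of 0.17 (edgeR adjusted p = 6.04e-07). Btg1 differed by -0.98 (edgeR adjusted p = 0.00406) and Btg2 by -1.06 (0.0366), both lower in PSC4. So 3 of 8 were called, against 42.9% of all genes, all 3 lower, against 20.6%, and the Btg2 difference lost its call in 7 of the 12 fits that left out 1 library. After the Gem supernatants, Tob1 averaged 183 CPM in PSC4 and 208 CPM in KPC4. Zfp36, Zfp36l1 and Zfp36l2 differed between control lines by 0.30, 0.26 and 0.27, and none was called.

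Levels of different genes were compared per kilobase of the longest coding transcript. In PSC4 controls Zfp36l2 stood highest of the 8 at 114 CPM per kb, Btg1 followed at 32.4 and Zfp36l1 at 28.2, with overlapping spreads, and Btg2 was lowest at 4.53. After Gem-SU Btg2 was first at 275 CPM per kb, then Tob1 at 79.8, Tob2 at 48.1, Btg1 at 46.5 and Zfp36l2 at 43.1, the last 3 within their spread. In KPC4 controls Zfp36l2 was again first at 94.6 CPM per kb, ahead of Tob1 at 67.3 and Btg1 at 63.9, and Zfp36 was last at 5.17. The order in KPC4 after Gem-PSC-SU began with Zfp36l2 at 97.3 and Tob1 at 90.8, whose spreads overlapped. With each gene's median transcript length in place of the longest, Btg1 was first in both KPC4 groups, and Btg2 kept its first place after Gem-SU and its last place in the PSC4 controls.

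The make-up of both families changed in PSC4. The summed Btg/Tob level was 98.1 ± 11.5 CPM per kb in controls and 482 ± 49.1 after Gem-SU (SD, n = 3 each), and Btg2 made up 4.54% of it in controls and 56.9% after Gem-SU. The share of Btg2 ranged from 3.24% to 5.50% in the controls and from 54.1% to 60.4% after Gem-SU. The summed Zfp36 family was 149 ± 28.5 CPM per kb in controls and 104 ± 21.4 after Gem-SU, a pair of ranges that just failed to overlap (125 to 180 against 81.5 to 124). With median transcript lengths those ranges overlapped, at 161.5 to 230.4 and 123.0 to 182.1. Within it Zfp36l2 went from 76.6% to 41.3%, Zfp36 from 4.43% to 24.6% and Zfp36l1 from 19.0% to 34.1%. In KPC4 the Btg/Tob sum was 181 ± 19.9 and 277 ± 57.8 CPM per kb, and Btg2 went from 5.23% to 18.1%. There the Zfp36 family summed to 123 ± 2.62 and 153 ± 6.75 CPM per kb, and Zfp36l2 went from 76.6% to 63.6%. These shares are descriptions with no test. With median lengths, Zfp36l2 went from 60.3% to 27.6% in PSC4 and Zfp36l1, at 54.9%, was the largest share after Gem-SU.

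**Figure D3:**
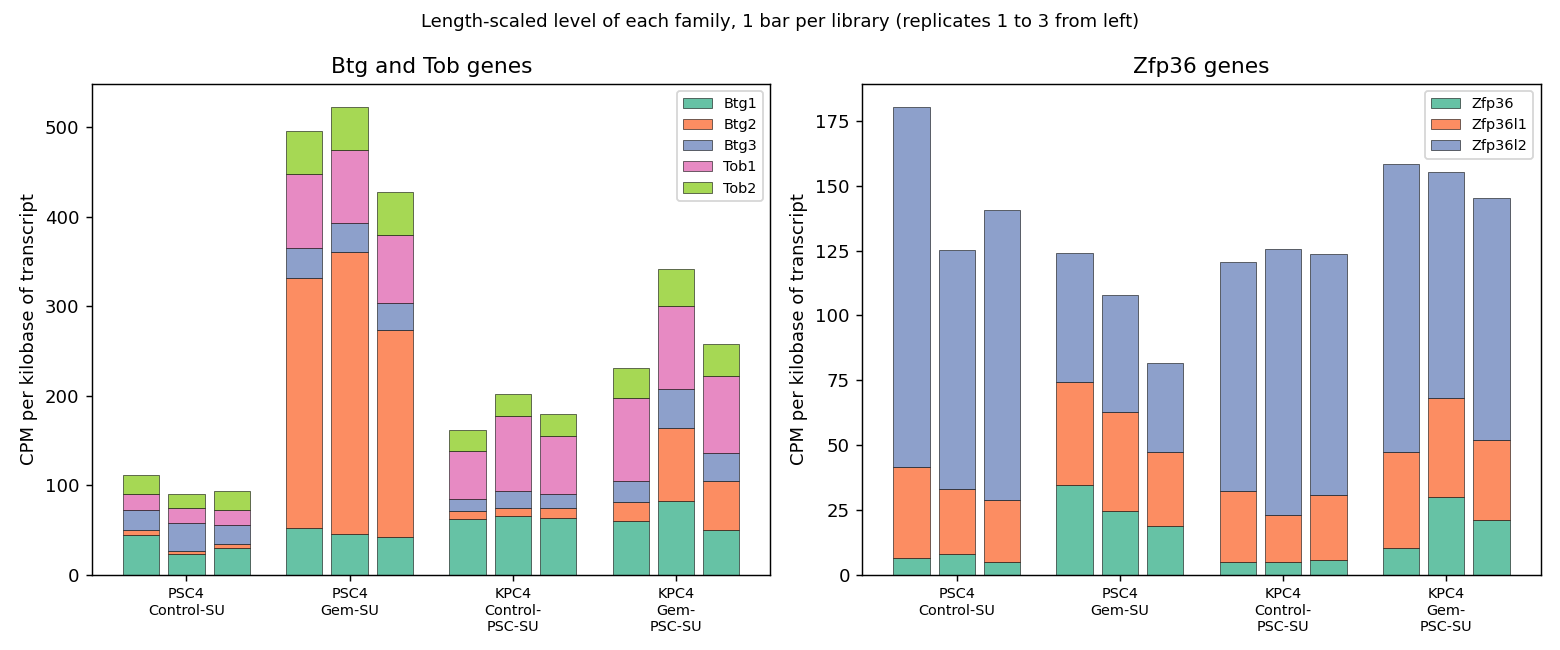
Stacked bars of CPM per kilobase, 1 per library, starting at 0, for the Btg/Tob family and the Zfp36 family in the 4 groups. Btg2 fills 54.1% to 60.4% of each Gem-SU bar of the first family, and Zfp36l2 fills 40.2% to 41.9% of each Gem-SU bar of the second, down from 73.5% to 79.4% in the PSC4 controls.

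The CCR4-NOT complex that these adaptors recruit had a share of calls near that of all genes in PSC4. Of 12 subunits and partners tested in PSC4, 3 rose and 2 fell, against 24.3% and 22% of all genes, and the median log2 change was -0.01. Cnot9, the subunit contacted by several RNA-binding proteins, rose by 1.11 (edgeR adjusted p = 0.000522), Cnot4 rose by 1.39 (0.00372) and Cnot3 by 0.54 (0.0107). The deadenylase subunits Cnot6, at -0.77 (edgeR adjusted p = 0.00191), and Cnot8, at -0.71 (0.00458), fell. The other catalytic subunits, Cnot7 at 0.34 (edgeR adjusted p = 0.0621) and Cnot6l at -0.17 (0.524), were not called. Every Gem-SU library of Cnot7 lay above every control. In KPC4 none of the 12 was called with or without the block (edgeR) or by DESeq2, 3 had an unadjusted p under 0.05, against 17% of all genes, and the median was 0.00.

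Among 16 other deadenylation, decapping and exonuclease genes in PSC4, 5 rose and 2 fell, against 24.3% and 22% of all genes, with a median of 0.35. The count of 7 was 4 without the third Control-SU library and 11 without the first Gem-SU library. Dis3, a catalytic exosome subunit, rose by 1.67 and the decapping scaffold Edc4 by 0.89. The helicase Ddx6, at -0.67, fell (edgeR adjusted p = 0.00985), as did the decapping cofactor Dcp1b, from 2.19, 2.45 and 2.03 CPM in controls to 0.605, 0.704 and 0.296 CPM after Gem-SU (0.00649). Of 12 other binders of AU-rich or stem-loop elements, 4 rose, against 24.3%, and none fell, against 22%, with a median of 0.30. This count rests on single libraries: it was 1 without Control-SU replicate 1 or 3 and 1 without Gem-SU replicate 2 or 3. Hnrnpab rose by 0.80 and Rc3h1 (Roquin-1) by 0.66. In KPC4 no gene of either list was called without the block (edgeR), and 2 of each had an unadjusted p under 0.05, against 17% of all genes. DESeq2 called 0 and 2, against 823 genes in all. With the block 1 and 2 were called, against 8.85% of all genes. Pabpc1, the main poly(A)-binding protein, was lower at -0.46 in that fit (adjusted p = 0.0446). Zc3h12a (Regnase-1), an endonuclease that cleaves stem-loop messages, was higher at 0.91 in the fit with the block (adjusted p = 0.0432), as was Tial1 at 0.66 (0.0317).

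The p38 and MK2 pathway, which controls Zfp36 protein by phosphorylation, had 5 of 10 genes higher in PSC4, against 24.3% of all genes, and none lower, against 22%, with a median of 0.50. Dusp1, a phosphatase that inactivates p38, went from 30.8 ± 4.08 to 145 ± 23.6 CPM in PSC4, a log2 change of 2.29. Mapkapk3, a kinase related to MK2, rose by 2.08 and Mapk14, p38 alpha itself, by 0.76 (edgeR adjusted p = 0.00163). Mapkapk2, which encodes MK2 itself, was not called, at 0.12 with an SE of 0.25 (edgeR adjusted p = 0.718) and overlapping groups. The interaction was called for Mapkapk3 at 2.34 (edgeR adjusted p = 0.00312) and Mapk14 at 0.73 (0.0305), 2 of 10 against 9.85% of all genes, a count that ran from 1 to 4 when 1 library was left out. In KPC4 none of the 10 was called without the block (edgeR), and 3 had an unadjusted p under 0.05, against 17% of all genes. DESeq2 called 1, against 823 genes in all. The fit with the block called 3, against 8.85% of all genes, all higher: Dusp1 at 4.50 (adjusted p = 0.0011), Map2k3 at 0.76 (0.0340) and Mapkapk5 at 0.64 (0.0398). Dusp1 in KPC4 was at 4.66, 18.4 and 7.44 CPM in controls and at 57.7, 453 and 275 CPM after Gem-PSC-SU, the library order of Btg2 and Zfp36.

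Most tested messages known for AU-rich elements, the usual targets of Zfp36 proteins, rose in PSC4. Of 18 listed, 15 were tested in PSC4 and 12 rose, against 24.3% of all genes, none fell, against 22%, and the median log2 change was 1.73. The 3 that did not pass were Cxcl1 at 0.58, Ccnd1 at 0.47 and Pim1 at 0.07. Of the 18 listed, 15 held TATTTAT in the 3′ untranslated region and 10 held TTATTTATT. Ccl2, Hmox1 and Myc, which rose, held neither, whereas Cxcl1 and Pim1 held 6 and 4 TATTTAT sites. Whether the rise follows these sites was not tested. Fos, an early-response transcription factor, was at 4.30, 4.43 and 2.52 CPM in the PSC4 controls and at 273, 215 and 241 CPM after Gem-SU, a log2 change of 6.06. Lif, a cytokine of the interleukin-6 family, rose by 5.10 from 5.50 ± 1.63 to 182 ± 45.1 CPM. Ptgs2, the inducible cyclooxygenase whose clustered sites are printed above, rose by 4.91 from 18.2 ± 3.43 to 531 ± 184 CPM (SD, n = 3 each). Csf2 had no counts in any PSC4 control and 1.42 ± 0.363 CPM after Gem-SU, at least 15.2-fold higher against a floor of 3 counts per library. Il6 averaged 0.180 CPM in the PSC4 controls and 3.05 CPM after Gem-SU. Csf2 and Il6, both among the 12, passed the filter on low counts through the treated libraries, so their direction was fixed in advance.

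In KPC4, 16 of the 18 were tested and 15 had positive changes, with a median of 1.46. Of 12621 tested genes with a 3′ untranslated region, 48.0% had positive changes. None was called without the block (edgeR), and 13 had an unadjusted p under 0.05, against 17% of all genes. DESeq2 called 7, against 823 genes in all. With the block 5 were called, Tnf, Csf2, Ptgs2, Cxcl2 and Lif, all higher, against 6.07% of all genes. Tnf, Csf2 and Cxcl2 averaged 0.0559, 0.480 and 0.296 CPM in controls and 3.47, 43.3 and 28.5 CPM after Gem-PSC-SU. They passed the filter on low counts through the treated libraries, so their direction was fixed in advance, also in the count of positive changes. Without the block, 12 were called when the first Gem-PSC-SU library was left out, against 1129 genes in all. When the second Control-PSC-SU library was left out 4 were called, against 174 genes in all. Ptgs2 was at 48.1, 182 and 74.0 CPM in the KPC4 controls and averaged 1520 ± 1315 CPM after Gem-PSC-SU, a log2 change of 3.93 (edgeR adjusted p = 0.112; with the block 3.74 and 0.000235). Cxcl2, a neutrophil-attracting chemokine, was at 0.233, 0.453 and 0.201 CPM in controls and at 4.80, 44.0 and 36.8 CPM after Gem-PSC-SU. Fos was at 5.01, 5.23 and 4.22 CPM in controls and at 29.6, 429 and 191 CPM after Gem-PSC-SU (edgeR adjusted p = 0.109 with the block). The spread among these treated libraries followed that of Btg2 and Zfp36, with the first lowest and the second highest. The interaction was called for 3 of 15, against 9.85% of all genes: Lif at 3.09 and Notch1 at 2.28, higher in PSC4, and Cxcl1 at -5.02 (edgeR adjusted p = 0.00703, 0.00100 and 0.00328).

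**Figure D4:**
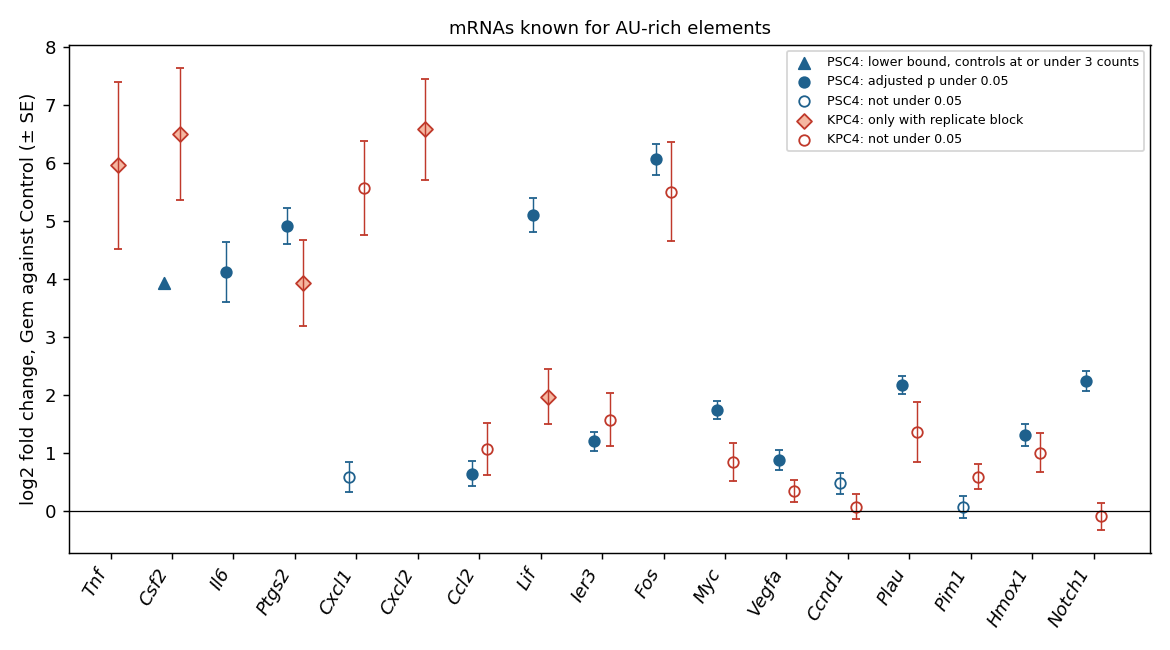
Log2 fold changes, Gem against Control, with bars of 1 standard error, for the listed AU-rich messages tested in PSC4 or KPC4, from the fits without the block; the triangle for Csf2 in PSC4 is a lower bound because its controls held no counts. Fos lies at 6.06 and Ptgs2 at 4.91 in PSC4, and the median over the list is 1.73 in PSC4 and 1.46 in KPC4.

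The genes whose log2 levels most resembled each member over the 12 libraries were picked among 9448 genes with a mean of at least 10 CPM. The 12 libraries share 4 groups, so these Pearson correlations largely follow group differences and are descriptions. For Btg2 they were Rcan1 (0.985), Dusp8 (0.977) and Slc15a4 (0.975), and for Tob2 they included Dusp8 (0.979) and Smtn (0.974). Zfp36 was nearest to Ppp1r15a (0.982), Oser1 (0.980) and Kin (0.979), and Tob1 to Gch1 (0.983), Cdk17 and Depdc7 (0.969 each). Zfp36l2 was nearest to Zadh2 (0.981), Tmed2 (0.974) and the TGF-beta receptor Tgfbr2 (0.967). Btg1 was nearest to Polr2h (0.945), Higd1a (0.932) and Shq1 (0.930), and Btg3 to Lin9 (0.963), Larp7 (0.957) and Aurka (0.949). Zfp36l1 had no close match, with Cltb first at 0.785, then Ormdl3 at 0.777 and Elf2 at 0.769. Among the members themselves, Btg2 and Tob2 gave 0.981, Btg2 and Zfp36 0.894, Zfp36 and Btg3 0.851, and Btg2 and Zfp36l2 -0.824.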

How the data were processed

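The authors' deposited tables give raw counts per gene and library for each line, beside log2 fold changes and p-values of their own. Per the submitters' processing notes, Trim Galore 0.6.10, cutadapt 5.2, Salmon, DESeq2 and R 4.5.1 were used, with build GRCm39. The order of these steps, the annotation and the strand setting are not given in the sources used here, and reads shared with overlapping genes or pseudogenes could not be separated. The deposited counts were used as they stand; the authors' log2 fold changes and p-values were copied only where named.

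Counts were fitted per line with edgeR 4.0.16 in R 4.3.3 (filterByExpr, TMM, robust quasi-likelihood test, Benjamini-Hochberg, threshold 0.05). The interaction and the control-line difference used 1 fit over 12 libraries and the genes present in both tables. CPM divides counts by the library total times the TMM factor. Alternatives were DESeq2 1.42.0, other filters and scalings, the replicate block and leaving out each library. The code was tested on simulated data.

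Replicate numbers come from the labels. In KPC4, deviations of same-numbered libraries correlated at 0.351, 0.436 and 0.211, so the numbers were taken as pairs from the values alone; PSC4 numbers were not. No 2 libraries were alike within sampling noise. What separated the biological replicates is not stated, so p-values measure the spread between these samples.

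Symbols were matched for 16329 of 16386 and 15265 of 15309 identifiers. Besides the 8 members, each list names at most the 3 called genes with the smallest p in each direction, and each member its 3 most alike genes. Some genes that this rule names are not reported here. Members, lists and tests were chosen with earlier results of these data known. No per-sample column was left unused.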

Additional observations from a re-analysis of the deposited data

Results flagged for a closer look

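For 3 genes the response to the Gem supernatant differed between the lines by the interaction test over 12 libraries (edgeR quasi-likelihood, adjusted over 13632 genes). Btg2 had the higher rise in PSC4, by 3.45 on the log2 scale (adjusted p = 0.00226). Tob1 also rose more in PSC4, by 1.79 (adjusted p = 0.000958), from the lower starting level. Zfp36l2 fell in PSC4 and averaged 334 and 344 CPM in KPC4, a difference of -1.45 (adjusted p = 0.00642). These 3 calls held in all 19 alternatives run for the interaction. Line and transfer step cannot be told apart.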

How the results depend on the processing

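Over 528 values of a member under an alternative setting, no called value changed sign, 475 stayed on their side of the threshold, 46 newly passed it and 7 lost it, all 7 being the Btg2 difference between control lines (-0.88, adjusted p = 0.114, without the second Control-SU library of PSC4). The sign of values near 0 that were never called changed in 10 cases: Btg1 in KPC4 (4, down to -0.24), Zfp36l2 in KPC4 (2, down to -0.06) and the Zfp36 interaction (4, down to -0.31). The replicate block raised the members called in PSC4 from 5 to 8, as did DESeq2 with the block, an alternative chosen after seeing the data. The share of all genes called in those fits is not given here. Calls over all genes were 6177 in the main fit and reached 7325 among the alternatives, so the count of 8 says little about the members. PSC4 numbers correlated at 0.428, -0.0548 and 0.102, so there they are only numbers. In KPC4 the count of 0 became 4 with the block, 4 with DESeq2, 4 in 1 fit over 12 libraries and 5 with DESeq2 and the block. The control-line count of 3 became 5 with DESeq2 and 5 with DESeq2 and the block. The interaction count of 3 stayed between 3 and 4, and the block called Tob2 there at 0.75 (adjusted p = 0.0180). Leaving out 1 library gave 5 to 7 members called in PSC4, 0 to 4 in KPC4, 3 to 4 for the interaction and 2 to 4 between control lines. Without KPC4 Gem-PSC-SU replicate 2 the Tob2 interaction was 0.82 (adjusted p = 0.0287). Over all genes the calls ranged from 4061 to 7325 in PSC4, 0 to 2184 in KPC4, 610 to 3478 for the interaction and 4739 to 7266 between control lines. In PSC4 the list counts over all alternatives were 4 to 6 (CCR4-NOT), 4 to 11 (other deadenylation and decapping), 1 to 5 (other binders), 4 to 6 (p38) and 10 to 14 (AU-rich messages), and in KPC4 0 to 2, 0 to 2, 0 to 2, 0 to 4 and 0 to 12. Calls over all genes in KPC4 were 1171 with the block, 823 with DESeq2, and 1129 without Gem-PSC-SU replicate 1. They were 610 in 1 fit over 12 libraries and 2184 with DESeq2 and the block. With 3 libraries a group, the spread of the KPC4 Gem-PSC-SU libraries limits that comparison more than counting does.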

Other observations

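Genes carrying the AU-rich nonamer TTATTTATT in the 3′ untranslated region were also described as a whole. In PSC4, 240 tested genes had at least 2 of them, with 34.2% called higher, 10.8% called lower and a median log2 change of 0.34. The 838 genes with 1 gave 32.3% higher, 16.8% lower and a median of 0.21, and the 11653 genes with none gave 24.1% higher, 23.2% lower and a median of -0.03. Their median 3′ untranslated regions differed in length, 2889 bases for the first class and 1098 for the last. Among regions of at least 1500 bases, 186 genes with at least 2 gave 30.1% higher and 11.3% lower, and 4510 genes with none gave 25.3% higher and 24.3% lower. Length was still not matched there, with medians of 3585 and 2563.5 bases. In KPC4 the medians were 0.02, 0.04 and -0.02, with no gene called by edgeR without the block. These are shares of genes with no test.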
